A study of Mus musculus with 45 samples.

Results

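A pair of clusters of intermediate erythroblast nuclei that each belong almost wholly to 1 genotype were compared: cluster C8 in Stag2 knockout (KO) mice and cluster C9 in Stag2 wild-type (WT) mice. A nucleus was a member when the authors' table of nuclei placed it in C8 and in a KO library, or in C9 and in a WT library. This gave 3855 of 34073 nuclei, 2020 of them KO and 1835 WT. C8 held 2032 nuclei, of which 2020 (99.4%) were KO, and C9 held 1853, of which 1835 (99%) were WT. The authors' stage label was intermediate ("Int") for 2017 KO and 1820 WT members, early for 2 and 15, and late for 1 KO member.

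The series holds 45 samples on the loss of Stag2 in mouse blood formation, from single-nucleus, occupancy and chromosome contact assays. Used here were the 6 ATAC libraries of a combined RNA and ATAC assay (10x multiome) on erythroblasts sorted for the red cell surface marker Ter119. There were 3 libraries from Stag2 WT mice and 3 from Stag2 KO mice, all taken after a course of pIpC, the double-stranded RNA analogue polyinosinic-polycytidylic acid, which both genotypes received and whose final dose lay 6 to 8 weeks back. The RNA libraries were not analysed here. The labels name no Cre driver, strain, age or sex, and do not say whether a library is 1 animal or a pool, so p-values measure the spread between these libraries.

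Cohesin, which includes STAG2, is a ring of proteins that extrudes chromatin loops and holds sister chromatids together. STAG1 is a paralogue that takes the place of STAG2 in other rings. Erythroblasts carry chromatin shaped by GATA1, KLF1 and TAL1, and as they mature they shut down progenitor genes, condense the nucleus and expel it. ATAC sequencing counts fragments cut by a transposase from open chromatin, and a gene score sums such fragments in and around a gene, so it reports accessibility and not RNA.

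The gene scores of each library were averaged over its member nuclei and rescaled to a sum of 1000000 over genes, and all scores below are on that scale unless they are named as differences. WT libraries 1, 2 and 3 gave 544, 777 and 514 members, and KO libraries 1, 2 and 3 gave 749, 596 and 675. Members were 7.35% to 13.4% of the nuclei of a WT library and 12.9% to 15.4% of those of a KO library. They carried 9586270 to 14632876 fragments in all per WT library and 13915591 to 16439368 per KO library. The barcodes of 164 of the 3855 members also occurred in another library, and 26 of these were shared with another member.

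The nuclei differed in depth and signal quality between the genotypes. Median fragments per nucleus were 19428, 17341 and 16659 in WT C9 and 20901, 21520 and 21238 in KO C8, so the groups did not overlap. In WT 56.1% ± 2.97 of fragment ends fell in peaks, and in KO 52.2% ± 0.51 did (SD of library medians, n = 3 each). The exact permutation test gave p = 0.1 for each, the smallest that 3 against 3 allows, and an adjusted p of 0.2 over 6 measures. WT library 3 stood apart within its group: it had the fewest fragments, the highest share of ends in peaks (59.5%), and only 12.8% of its Int nuclei in C9 against 24.2% and 30% in the other WT libraries. C8 and C9 were chosen as the deepest Int clusters of each genotype. Other Int nuclei had library medians of 9028 to 12109 fragments, and a higher share of ends in peaks than the members in each library. The stage index and the comparison of KO C8 with WT C9 were also computed in nuclei matched on fragments, 329 per library. The pool of C8 and C9 and the comparisons with other nuclei, given below, were not matched.

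The stage of the 2 clusters was compared by an index taken from other nuclei. The index is the mean log2 score of 326 genes that were higher in Late nuclei less that of 1235 genes that were higher in Int nuclei, chosen outside C8 and C9 by a difference of at least 0.5 in all 6 libraries. It was 0.774, 0.660 and 0.783 in WT C9 and 0.702, 0.710 and 0.679 in KO C8. The KO values lay between the lowest and the highest WT value. KO less WT was -0.0422, with an exact permutation p of 0.4, where 3 against 3 cannot go below 0.1, so the test does not show that the stages are alike. The Late class stood far above both, at means of 2.60 in WT and 2.34 in KO.

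The sign of this small stage difference was not fixed. With the stricter cutoff of 1, which left 21 and 160 genes, it became 0.0836 (exact p = 0.2), and with genes chosen in WT libraries alone it was -0.131 (exact p = 0.1, the smallest possible), with all KO values below all WT values. With nuclei matched on fragments it was -0.00663. The index does not order the early side, since C7, mostly labelled early, reached 0.725 to 0.890. By the root mean square difference of log2 scores over the 19476 genes tested, KO C8 lay nearest to WT C9 (0.298, against 0.336 to KO C5 and 0.370 to KO C10), and WT C9 lay nearest to KO C8 (against 0.329 to WT C11). Over the 1561 stage genes KO C8 was as near to KO C5 (0.290) as to WT C9 (0.295). These distances are a description added after the data were seen, and the part of depth in them was not tested.

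**Figure D1:**
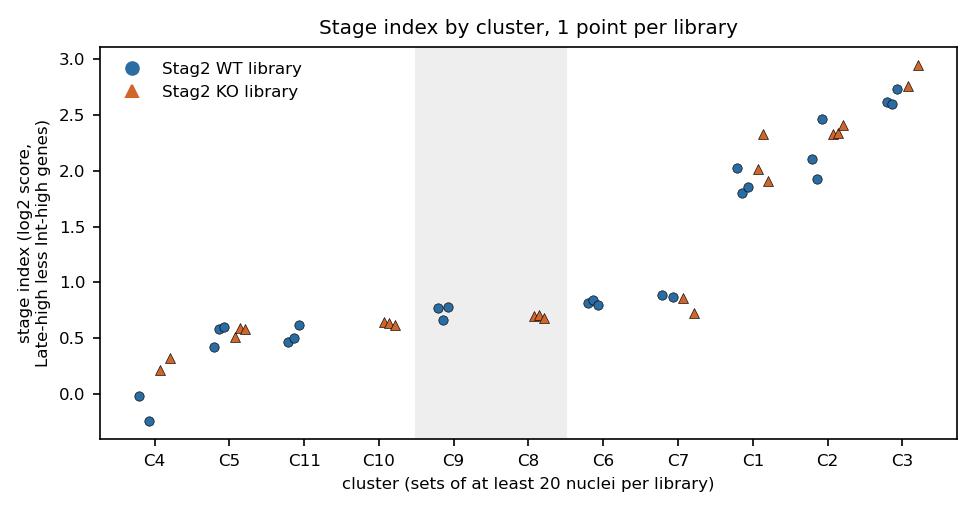
Stage index (y axis, log2 score of Late-high less Int-high genes) in each cluster (x axis), with 1 point per library holding at least 20 nuclei of it; circles are WT, triangles KO, and the shaded band marks C9 and C8. The 3 KO C8 points (0.679 to 0.710) lie within the span of the 3 WT C9 points (0.660 to 0.783), and the Late clusters C1 to C3 lie well above.

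Cell type markers fitted the sort. Of 9 erythroblast markers 8 were in the table, and their scores summed to 1184 to 1357 in WT and 1162 to 1252 in KO libraries. Marker sums of other lineages, over unlike numbers of markers, were lower but not 0. The median marker mean was 115 for erythroblast and 40.8 for megakaryocyte markers, and the highest megakaryocyte marker mean was 131. Those of 7 myeloid markers ran from 70.1 to 88.3 in WT and from 103 to 108 in KO, and those of 6 lymphoid markers from 82.5 to 97.6 and from 110 to 124. Sums of 4 early erythroid progenitor markers ran from 87.2 to 107 and from 125 to 133. By limma (below) only Gata2 of these 4 passed as higher (log2 fold change 0.94). Myb passed as lower (-0.24) and Kit did not pass (-0.04), so the sums do not stand for the 4 markers alike. The 5 megakaryocyte markers (226 to 251 in WT, 242 to 263 in KO) and the 4 mast cell or basophil markers (26.6 to 37.9, and 33.7 to 40.8) overlapped between the groups. No marker was at 0 in any library. The part of other cells in the results was not tested.

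The score of Stag2 itself did not separate the genotypes. It was 62.8, 63.5 and 65.9 in WT and 60.3, 65.4 and 59.1 in KO, which by limma was a difference of -0.06 on the log2 scale (SE 0.06, adjusted p = 0.503). A score over a whole gene body does not read the loss of an exon, a transcript or a protein, so it does not check the labels. Stag1 scored 148, 143 and 136 in WT and 133, 133 and 137 in KO, so the groups overlapped (-0.08, adjusted p = 0.220). Of 17 tested genes of cohesin, its partners and CTCF, only Stag3, which encodes the meiotic STAG subunit, passed the threshold (-0.28, adjusted p = 0.0422). A count of 1 lower is near the background of 7.62% of all genes, and Stag3 kept the call in 11 of 19 alternatives, losing it without WT library 1 or 2 or any 1 KO library.

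Across the genome, KO C8 differed from WT C9 at many genes by small amounts. Of 19476 genes tested with limma, 4630 (23.8%) passed a Benjamini-Hochberg adjusted p of 0.05. Of these 3146 (16.2% of genes tested) were higher in KO and 1484 (7.62%) lower. The median absolute log2 fold change among them was 0.45, and only 98 changed more than 2-fold, 89 upward and 9 downward. Genes that lie next to each other can share fragments. Calls of 1 direction within 100 kb of each other formed 1845 higher and 972 lower loci. The 3 KO values lay wholly on one side of the 3 WT values at 41% of genes tested.

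Those p-values do not cover the choice of nuclei. The clusters were probably drawn on the accessibility of these same nuclei, and each cluster is almost all of 1 genotype, so a cluster difference and a genotype difference cannot be told apart here. Pooling C8 and C9 in both genotypes gave 4576 calls of 19471 (23.5%), but it adds only 12 WT and 18 KO nuclei. No library had 20 nuclei in both clusters, so C8 was not compared with C9 within a genotype. Leaving out any 1 KO library left 2540 to 2591 calls, leaving out any 1 WT library 3739 to 5655, and nuclei matched on fragments gave 2526.

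The direction of a change went with the level of the gene. In the lowest quartile of mean score the median log2 fold change was 0.28 and 98.3% of calls were higher in KO, and in the second these were 0.21 and 92%. In the third quartile the median was -0.02 with 54.3% of calls higher, and in the highest it was -0.06 with 23.5% higher. The overall 67.9% of calls higher in KO moved with the scaling, to 51.1% under quantile normalization, 54% under cyclic loess and 43.6% under median centring, which moved the median of all genes from 0.05 to -0.06. In nuclei matched on fragments 62.1% of calls were higher in KO and the median of all genes was 0.03. Of 19476 genes, 1643 were higher and 1572 lower under quantile normalization, 1678 and 1430 under cyclic loess, and 2282 and 2953 under median centring. Of 19444 genes, 1568 were higher and 958 lower in nuclei matched on fragments. List counts under these settings are to be read beside these. KO nuclei also had a smaller share of ends in peaks (above), and its part in the slope was not tested.

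The largest gain was at an apolipoprotein L cluster on chromosome 15. Apolipoprotein L proteins bind lipids, and several of the human ones are induced by interferon. Apol11a (chr15:77508271-77517319, mm10) scored 7.17, 11 and 4.57 in WT and 64.1, 59.9 and 59.8 in KO. The groups lay far apart, with means 8.07-fold apart (log2 2.93, SE 0.18, adjusted p = 4.59e-09). The locus took in 7 further calls, among them Apol10a (2.34), Apol11b (2.15) and Apol8 (0.39). The family, listed after the values were seen, had 13 genes, of which 9 reached the filter at a mean of 5. Of these 8 rose and none fell, beside 16.2% and 7.62% of all genes. Their median was 1.42 against 0.05 for all genes. Most of the 8 lie in this locus and can share fragments, and a low gene can pass the filter through its KO values alone.

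Gmpr (chr13:45507444-45546386), which encodes the reductase that returns GMP to IMP in purine metabolism, had no called neighbour within its locus. It scored 14.7, 14.6 and 12.6 in WT and 67.4, 67.5 and 65.3 in KO. The KO values lay close together and averaged 4.78 times the WT mean (log2 2.18, SE 0.09, adjusted p = 1.99e-11). Irf1 (chr11:53770014-53778374), an interferon-induced transcription factor that activates antiviral and antigen presentation genes, scored 10.3, 14 and 6.43 in WT and 47.6, 47.8 and 36.1 in KO. Both WT library 3 and KO library 3 were the lowest of their groups, and the groups did not overlap (2.04, SE 0.18, adjusted p = 4.21e-07).

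Promoters are shown for the 3 leading gains with an entry in RefSeq's promoter set and for 2 of the losses described below, so that the letters at the start sites can be read beside the scores. Each runs 5′ to 3′ on the gene's strand from 250 bases before to 50 after the RefSeq start (GRCm38.p6). Capitals mark matches on either strand to a GATA motif (AGATAA), a STAT motif (TTCNNNGAA), an interferon regulatory factor motif (GAAA, any 2 bases, GAAA) or an AP-1 motif (TGANTCA). No match overlapped another.
Apol11a (chr15:77508019-77508318, plus strand): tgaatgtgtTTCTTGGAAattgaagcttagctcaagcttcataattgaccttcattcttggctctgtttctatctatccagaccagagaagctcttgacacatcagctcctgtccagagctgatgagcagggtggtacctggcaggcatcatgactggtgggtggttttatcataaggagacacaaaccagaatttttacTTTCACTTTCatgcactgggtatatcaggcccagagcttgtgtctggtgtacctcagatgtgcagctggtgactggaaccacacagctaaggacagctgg
Gmpr (chr13:45507194-45507493, plus strand): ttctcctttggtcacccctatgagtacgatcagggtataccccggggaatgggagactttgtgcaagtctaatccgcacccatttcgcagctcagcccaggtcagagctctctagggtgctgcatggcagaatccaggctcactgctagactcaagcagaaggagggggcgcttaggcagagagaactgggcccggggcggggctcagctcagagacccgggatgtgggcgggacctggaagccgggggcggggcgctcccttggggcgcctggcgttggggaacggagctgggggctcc
Irf1 (chr11:53769764-53770063, plus strand): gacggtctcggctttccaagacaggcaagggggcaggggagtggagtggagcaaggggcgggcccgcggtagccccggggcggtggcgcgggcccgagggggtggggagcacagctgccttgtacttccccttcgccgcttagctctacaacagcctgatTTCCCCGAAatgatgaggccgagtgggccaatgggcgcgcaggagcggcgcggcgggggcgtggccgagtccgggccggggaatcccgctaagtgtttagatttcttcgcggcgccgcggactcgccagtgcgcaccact
Gpc4 (chrX:52164874-52165173, minus strand): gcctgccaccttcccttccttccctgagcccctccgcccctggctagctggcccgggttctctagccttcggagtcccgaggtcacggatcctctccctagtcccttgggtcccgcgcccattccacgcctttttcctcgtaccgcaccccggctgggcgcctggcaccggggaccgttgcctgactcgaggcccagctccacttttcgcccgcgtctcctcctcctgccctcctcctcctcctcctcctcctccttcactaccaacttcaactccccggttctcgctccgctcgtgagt
Jun (chr4:95052173-95052472, minus strand): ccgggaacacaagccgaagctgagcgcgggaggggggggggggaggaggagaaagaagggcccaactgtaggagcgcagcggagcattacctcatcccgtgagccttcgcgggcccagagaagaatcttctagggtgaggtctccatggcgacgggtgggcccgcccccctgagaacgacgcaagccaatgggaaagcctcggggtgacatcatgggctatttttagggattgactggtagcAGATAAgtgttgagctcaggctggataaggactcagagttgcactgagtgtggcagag

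With the start base counted as 0, the Apol11a window held a STAT match at -241 and an interferon regulatory factor match at -50, the Irf1 window a STAT match at -90, and the Jun window a GATA match at -8. The Gmpr and Gpc4 windows held none of the 4 motifs. A match is a description of letters and not a bound site. A promoter within 1 kb of the table's start was found for 13859 of the genes tested, and 7.57% of these held the GATA motif, 7.35% the STAT motif, 3.07% the interferon regulatory factor motif and 5.92% the AP-1 motif. The same shares were 6.87%, 7.72%, 3.22% and 6.58% among 2111 higher calls, and 6.79%, 7.98%, 2.02% and 5.6% among 1090 lower calls. They were 11.2%, 8.3%, 3.44% and 7.81% of all 32851 promoters in the set.

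Further gains lay at genes with unlike roles. Mir802 (2.26) is a microRNA gene whose score rose with that of its called neighbour 1810053B23Rik, from 7.72, 9.39 and 9.95 to 41.2, 42.6 and 58.2. Cdkn1a encodes p21, the inhibitor of cyclin-dependent kinases that p53 induces. Its scores were 21.9, 23.3 and 24.2 in WT and 76.7, 71.0 and 81.6 in KO, with no overlap (1.68, SE 0.07, adjusted p = 4.93e-11). Arhgdib rose by 1.87, and Pirt, a regulator of ion channels in sensory neurons whose WT mean lay below the filter at 5, by 1.79. Gm6583 (1.72), Cyb561 (1.60), Ndrg2 (1.57), Pdxk-ps (1.55) and Tmem51 (1.55) completed the 12 loci with the largest rise. In Ndrg2 KO library 3 was lower than the other KO libraries, at 21.4 against 40.2 and 45.5, but above every WT value (7.56 to 13.0).

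**Figure D2:**
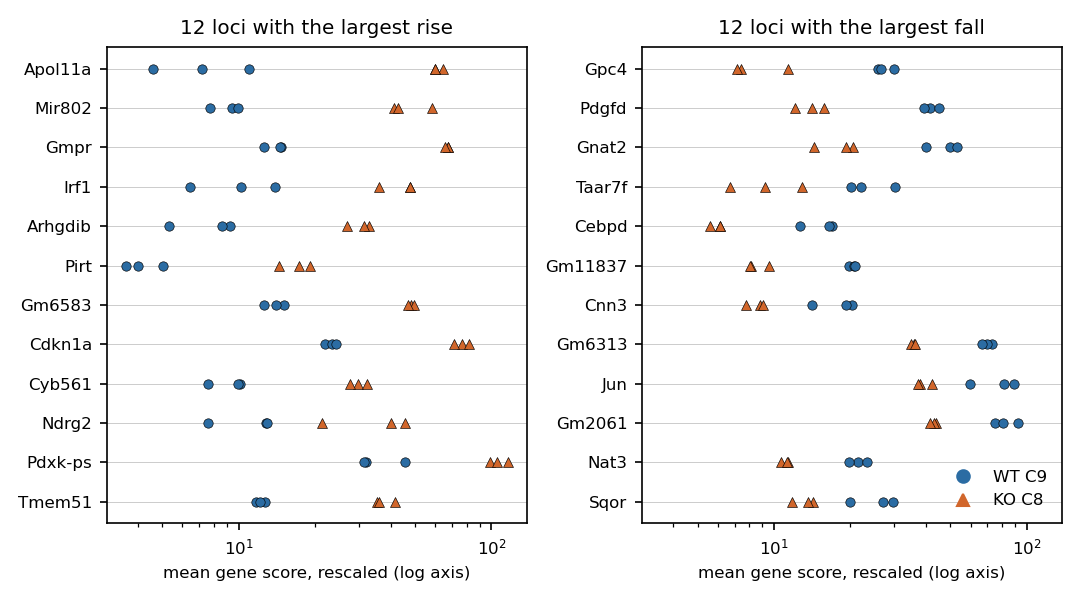
Mean gene score (log x axis) in each library for the 12 loci with the largest rise and the 12 with the largest fall; circles are the 3 WT C9 libraries and triangles the 3 KO C8 libraries. The groups are apart at all 24 loci, which the choice of loci requires, and the gaps are widest at Apol11a (4.57 to 11 against 59.8 to 64.1) and Gmpr.

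The losses were smaller. Gpc4 (chrX:52053018-52164923), which encodes glypican 4, a heparan sulfate proteoglycan of the cell surface, scored 30.0, 25.8 and 26.6 in WT and 7.43, 11.4 and 7.13 in KO. The groups were well apart (-1.58, SE 0.16, adjusted p = 1.38e-06). Pdgfd (chr9:6168612-6377519), a growth factor gene of the platelet-derived family, scored 41.4, 44.9 and 39.4 in WT and 15.7, 14.2 and 12.2 in KO, about 0.334 of the WT mean (-1.52, SE 0.11, adjusted p = 2.20e-08). Gnat2, the transducin subunit of cone photoreceptors, fell by 1.35.

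Taar7f (-1.27) led a locus of 9 called trace amine receptor genes on chromosome 10, receptors known from olfactory neurons. Of 15 family members 9 reached the filter at a mean of 5, which a low gene can pass through the group where it is higher. All 9 fell, from -0.53 to -1.27, beside 7.62% of all genes. In nuclei matched on fragments 8 of them were called lower, beside 958 of 19444 genes. The 9 genes lie in 1 cluster and can share fragments, and the family was listed after the values were seen. In C10 against C11, where 5 of its genes could be tested, none passed (median -0.28), and the difference between the sets was more negative here at 2 of the 5, beside 5.48% of all genes. In C5 1 of 6 passed, with a median of -1. Cebpd, a transcription factor of the C/EBP family, scored 16.9, 16.6 and 12.7 in WT and 6.12, 6.12 and 5.62 in KO, close to the filter at 5 (-1.23, adjusted p = 3.20e-05). The remaining named losses were Gm11837 (-1.17), Cnn3 (-0.98), Gm6313 (-0.95), Jun (-0.94, described below), Gm2061 (-0.93), Nat3 (-0.90) and Sqor (-0.89). All 24 leading loci kept their call in each alternative in which they could be tested, 422 gene and setting pairs, leaving aside the pool of C8 and C9, which the choice of loci had used. The alternatives reuse the libraries in which these loci were chosen by the size of their change, so they are no independent check.

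The gains and losses were also read as the share of nuclei with any score above 0, in nuclei matched on fragments (329 per library). For Apol11a the share was 7.29% to 14.3% in WT libraries and 56.8% to 62.3% in KO libraries, and for Irf1 8.51% to 19.1% and 39.8% to 45.9%. For Cdkn1a it was 26.7% to 27.1% and 60.2% to 69%. Pdgfd went the other way, at 60.8% to 70.5% in WT and 28.3% to 37.4% in KO, and so did Gpc4, at 38.6% to 46.5% and 15.8% to 28%. Jun differed by less in this measure than in its mean, with 63.5% to 72.3% against 55.6% to 59.6%. Klf1 was near saturation in both, at 87.2% to 89.4% and 88.8% to 90.9%.

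Without matching, the shares were 7% to 13.3% and 60.7% to 63.2% for Apol11a, and 58.8% to 66% and 56.9% to 62.1% for Jun, where the groups then overlapped. No KO library reached 100% for any of these genes, and no WT library was at 0. The exact binomial 95% interval, which covers counting error only, was 4.73% to 10.7% for Apol11a in the matched nuclei of WT library 3 and 51.3% to 62.3% in those of KO library 3.

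**Figure D3:**
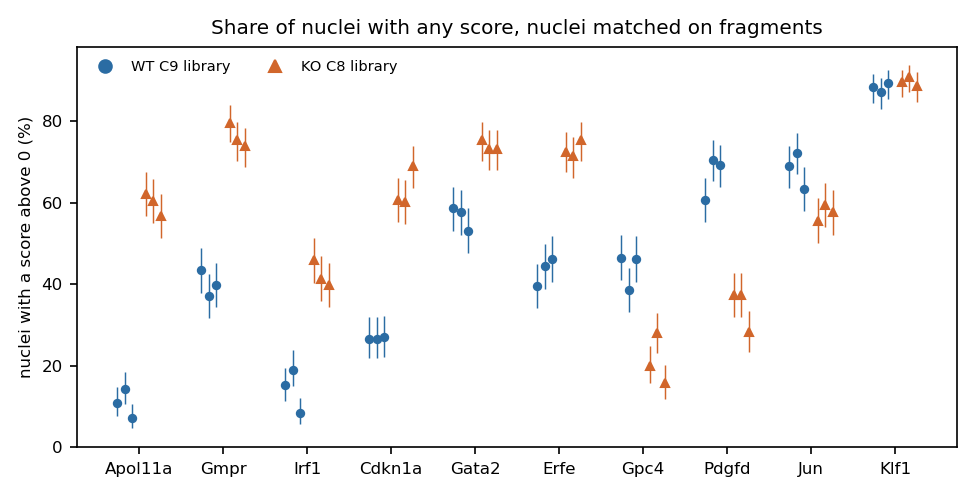
Percent of nuclei with a gene score above 0 (y axis) for 10 genes (x axis) in nuclei matched on fragments, 1 point per library (circles WT C9, triangles KO C8) with exact binomial 95% intervals. Apol11a, Irf1 and Cdkn1a rise in KO, Gpc4 and Pdgfd fall, and Klf1 lies between 87.2% and 90.9% in all 6 libraries.

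Gata2 gained accessibility. GATA2 drives progenitors and mast cells, and GATA1 replaces it and shuts its gene down as erythroid cells mature. Gata2 (chr6:88193891-88207032) scored 38.1, 38.7 and 29.7 in WT and 73.9, 66.4 and 66.1 in KO, a 1.94-fold difference with no overlap (0.94, SE 0.09, adjusted p = 4.80e-07). In matched nuclei its share above 0 was 53.2% to 58.7% in WT and 73.3% to 75.4% in KO. Gata1 was slightly lower, with 96.5, 85.8 and 96.2 in WT and 78.8, 84.5 and 83.1 in KO (-0.17, adjusted p = 0.0323). WT library 2 lay just above the highest KO value, and the call held in only 9 of 19 alternatives. It was lost without WT library 1 or 3 or any 1 KO library, with adjusted p up to 0.136, and in nuclei matched on fragments (adjusted p = 0.213).

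Of 13 tested erythroid transcription factors 5 were lower and none higher, beside 7.62% and 16.2% of all genes. Their median was -0.12 (-0.02 under quantile normalization). In the highest quartile of mean score, 829 of 4869 genes were lower and 255 higher. Gata1, Klf1 and Bcl11a scored within that quartile's range, from 70.2 up. Bcl11a, the repressor of embryonic and fetal globin genes, showed the largest loss. It scored 136, 143 and 134 in WT and 99.4, 90.1 and 97.7 in KO (-0.52, SE 0.05, adjusted p = 1.30e-06). Ikzf1, which encodes Ikaros (-0.35), and Nfia (-0.32) kept the call in all 19 alternatives. Tal1 (-0.14, adjusted p = 0.0367) kept it in 10, losing it without WT library 1 or any 1 KO library. Klf1, the activator of adult beta-globin, scored 217, 217 and 230 in WT and 213, 230 and 219 in KO, with the groups overlapping (-0.01, SE 0.05, adjusted p = 0.940) and a sign that turned with the scaling. Runx1 (0.03) and Kit (-0.04) did not pass either.

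Genes of the mature red cell had small fold changes, and lower calls differed between the lists, beside 16.2% of all genes higher and 7.62% lower. Among the 4869 genes of the highest quartile of mean score 255 were higher and 829 lower. None of 20 late maturation genes passed the threshold in either direction (median -0.02). Of 19 membrane and surface genes 1 was higher and 4 lower (median -0.05). These counts became 3 and 1 under quantile normalization or cyclic loess, 0 and 6 under median centring and 0 and 2 in matched nuclei. Over all 19476 genes these scalings gave 1643 and 1572, 1678 and 1430, and 2282 and 2953. The matched nuclei gave 1568 and 958 of 19444. Of 11 heme synthesis genes 1 was higher and 1 lower (median -0.04), and of 10 globin genes 1 and 3 (median -0.17). Among the 4 lower surface genes, Aqp1, the water channel, scored 268, 250 and 277 in WT and 223, 226 and 220 in KO (-0.25, adjusted p = 0.00205). The calls of Rhag (-0.19, lost without WT library 1 or KO library 1 or 3) and of the transferrin receptor gene Tfrc (-0.16, lost without KO library 1 or 2) held in 13 and 12 of 19 alternatives. Of the heme genes Uros was lower (-0.19, lost without WT library 3 or KO library 1) and Tspo2 higher (0.16, lost without WT library 2 or 3 or KO library 2 or 3).

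The globin calls are uncertain: the genes lie in clusters of near-identical copies, whose fragments the score may not tell apart, and 3 of the 4 calls were lost when single libraries were left out. Hbb-bs (-0.23), Hba-a1 (-0.26) and Hbq1b (-0.19) were lower and Hbq1a (0.32) higher. Hba-a1 scored 152, 133 and 183 in WT and 120, 142 and 128 in KO, so the groups overlapped. Its call, like that of Hbq1b, was lost without WT library 1 or 3 or KO library 1 or 3. Without WT library 3 the value of Hba-a1 was -0.137 and that of Hbq1b -0.127. The call of Hbb-bs was lost without WT library 1 or 3 or KO library 1. Of 27 genes of DNA replication and mitosis, Mcm4 (-0.22) and Ccne1 (-0.18, lost without KO library 2 or 3) were lower and none higher (median -0.07), beside 7.62% and 16.2% of all genes, and neither call stood in nuclei matched on fragments (adjusted p = 0.0617 and 0.0540).

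**Figure D4:**
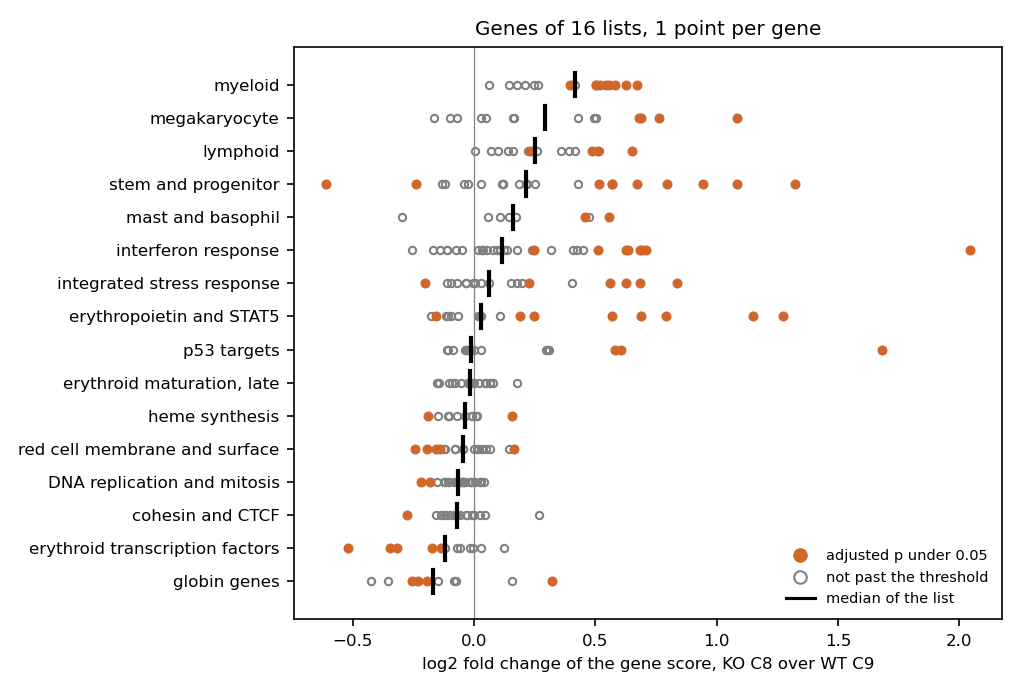
Log2 fold change of the gene score, KO C8 over WT C9 (x axis), for the tested genes of 16 lists (y axis), 1 point per gene; filled points passed an adjusted p of 0.05 and black bars are list medians. Erythroid lists sit near or below 0, while single genes reach 1.27 or more in the erythropoietin, interferon and p53 lists.

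Erythropoietin signals through JAK2 and STAT5, whose target genes include feedback inhibitors of the same pathway. Of 18 tested genes of this list 7 were higher and 1 lower, beside 16.2% and 7.62% of all genes, but the median was 0.03 (-0.08 under median centring). Erfe encodes erythroferrone, the erythroblast hormone that lowers hepcidin. It scored 38.6, 42.9 and 47.9 in WT and 105.0, 102 and 108 in KO, a 2.44-fold difference with no overlap (1.27, SE 0.07, adjusted p = 5.62e-10). Socs3, a feedback inhibitor of cytokine receptors, scored 36.8, 34.4 and 35.8 in WT and 82.9, 75.2 and 82.9 in KO (1.15, adjusted p = 8.30e-10). Cish, a second feedback inhibitor, rose by 0.57. Socs2 (0.79), Podxl (0.69), Socs1 (0.25) and Sh2b3 (0.19, lost without WT library 1 or KO library 1 or 3) were the other gains, and Tfrc the loss.

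Of 32 tested interferon response genes 8 were higher and none lower, beside 16.2% and 7.62% of all genes, with a median of 0.11 (0.01 under median centring, where 4 were lower). In nuclei matched on fragments 4 were higher and 1 lower, beside 1568 and 958 of the 19444 genes tested there. Under median centring 2953 of all 19476 genes were lower. Quantile normalization and cyclic loess each gave 8 higher and none lower in the list. Beside these, 1643 of all genes were higher and 1572 lower under the first, and 1678 and 1430 under the second. Irf1 stood alone at 2.04. The others ranged from Socs1 at 0.25, lost without KO library 1, to Rtp4 at 0.71, lost without KO library 2. Xaf1, an interferon-induced regulator of apoptosis, scored 19.4, 17.9 and 19.6 in WT and 29.3, 26.0 and 27.2 in KO (0.51, adjusted p = 0.00212). Mx1, an antiviral GTPase, scored 6.11, 6.60 and 5.38 and then 10.2, 10.4 and 8.99 (0.63, adjusted p = 0.0104), and its call was lost without KO library 1 or 2, under quantile normalization (adjusted p = 0.0875), under cyclic loess (adjusted p = 0.0965) and in nuclei matched on fragments (adjusted p = 0.187). Both genotypes had received pIpC, itself an inducer of interferon.

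Of 17 tested p53 targets 3 were higher and none lower, while the median was -0.01. That count is near the background of 16.2% higher, and Cdkn1a (above) had the largest fold change of the 3. Phlda3, a p53-induced inhibitor of AKT, scored 25.2, 26.4 and 22.6 in WT and 43.8, 32.8 and 36.5 in KO (0.58, adjusted p = 6.79e-04). Tnfrsf10b, a death receptor gene, was higher by a log2 fold change of 0.61, reached the filter at 5 through its KO values alone, and had a call that was lost without WT library 1 or 3 and under quantile normalization (adjusted p = 0.277). Of 19 genes of the integrated stress response, the programme that ATF4 runs when translation or amino acid supply falters, 5 were higher and 1 lower (median 0.06), beside 16.2% and 7.62% of all genes. Chac1, which degrades glutathione, scored 18.2, 28.0 and 34.7 in WT and 36.0, 46.2 and 63.4 in KO, so the lowest KO value was just above the highest WT value (0.83, adjusted p = 0.00302). Shmt2, a mitochondrial enzyme of serine and one-carbon metabolism, rose by 0.68 and the stress factor gene Atf3 by 0.63. The median turned to -0.05 under median centring.

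Stem and progenitor genes included gains and 2 losses. Of 23 tested 8 were higher and 2 lower, beside 16.2% and 7.62% of all genes, so the losses were near the background. The list had a median of 0.21 that became -0.01 under quantile normalization. Sox4, a progenitor transcription factor, scored 20.2, 25.3 and 16.5 in WT and 57.4, 48.6 and 51.5 in KO (1.32, SE 0.12, adjusted p = 3.36e-07). Fli1, an ETS factor of stem cells and megakaryocytes that competes with KLF1, scored 12.7, 15.0 and 9.78 in WT and 27.5, 27.2 and 26.9 in KO (1.08, adjusted p = 2.43e-05). The losses were Myc (-0.61) and Myb (-0.24, adjusted p = 0.0453), the second kept in 11 of 19 alternatives and lost without any 1 library other than WT library 3.

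Lists of other lineages had medians above that of all genes (0.05), with counts to be read beside 16.2% of all genes higher and 7.62% lower. Of 17 myeloid genes 9 were higher and none lower (median 0.42), of 16 lymphoid genes 4 and 0 (0.25), of 14 megakaryocyte genes 4 and 0 (0.29), and of 8 mast cell and basophil genes 2 and 0 (0.16). These genes mostly have low scores, where nearly all calls were higher, and quantile normalization left 1 myeloid, 0 lymphoid and 0 mast cell gains, with a mast cell median of -0.12. Under it 4 megakaryocyte genes were higher, and so were 1643 of all 19476 genes tested. In nuclei matched on fragments 5 myeloid, 2 lymphoid, 4 megakaryocyte and 0 mast cell genes were higher and none lower. There 1568 of 19444 genes were higher and 958 lower. Median centring gave 7, 3, 4 and 1 higher, with 2 megakaryocyte genes and 1 mast cell gene lower, beside 2282 and 2953 of all genes. Itga2b, the platelet integrin gene, scored 51.1, 53.7 and 49.3 in WT and 81.0, 84.6 and 82.8 in KO (0.68, SE 0.06, adjusted p = 1.53e-07). Spi1, the myeloid master regulator PU.1, scored 13.7, 16.2 and 7.85 in WT and 19.3, 17.8 and 17.6 in KO (0.56, adjusted p = 0.0374). This call was lost without WT library 3, where the value was 0.275, and without any 1 KO library. Cebpa did not pass (0.42, adjusted p = 0.0746), but its value ran from 0.19 without WT library 3 to 0.59 without WT library 1, where it passed (adjusted p = 0.0235), as it did with the replicate number as a block (adjusted p = 0.0296). The summed myeloid and lymphoid markers that were higher in KO (above) are members of these same lists, so they are not separate evidence.

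Genes of the AP-1 family and other immediate early genes, a list drawn up after the values were seen, split: of 20 tested 6 were higher and 5 lower, beside 16.2% and 7.62% of all genes. Jun and Fos proteins pair to form AP-1, which answers growth and stress signals. Jun (chr4:95049036-95052222) scored 81.5, 89.6 and 59.9 in WT and 37.8, 42.4 and 37.2 in KO (-0.94, SE 0.10, adjusted p = 3.66e-06). WT library 3 was the lowest of its group, and the highest KO value was 42.4. Fos went the other way, with 86.9, 92.0 and 80.6 in WT and 120, 119 and 117 in KO (0.45, adjusted p = 9.15e-06). Junb rose by 0.20 and Klf6 by 0.32, but both calls were lost under median centring, where adjusted p was 0.466 and 0.0547.

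Myc, the growth regulator, scored 92.1, 104 and 83.8 in WT and 65.1, 58.6 and 58.2 in KO (-0.61, adjusted p = 6.41e-06). Klf5, a Kruppel-like transcription factor gene, scored 65.0, 64.7 and 57.7 in WT and 35.5, 38.2 and 38.5 in KO (-0.72, adjusted p = 8.41e-07). Hbegf, a ligand of the EGF receptor, fell by 0.79. These 3 calls stood in each of 19 alternatives.

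Other calls were lost under single settings. In nuclei matched on fragments 15 were lost, namely those of Stag3, Gata1, Tal1, Tfrc, Uros, Tspo2, Mcm4, Ccne1, Socs1, Socs2, Rtp4, Mx1, Tnfrsf10b and Spi1, and that of Gbp2b, a guanylate binding protein gene. Their fold changes kept their sign there, with 329 nuclei per library: that of Spi1 was 0.56 in both, that of Tal1 -0.14 in both and that of Socs1 0.25 and 0.24, while that of Gata1 went from -0.17 to -0.12 and that of Mx1 from 0.63 to 0.44. Quantile normalization ended those of Gata1, Tal1, Rhag, Tfrc, Uros, Hba-a1, Hbq1b, Mx1, Tnfrsf10b, Spi1 and Gbp2b, 11 in all, and median centring ended those of Hbq1a, Tspo2, Socs1, Sh2b3, Tnfrsf10b, Junb and Klf6, 7 in all. Without the variance trend 22 were lost, Chac1 among them.

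The KO effect was then set beside that in 3 other sets of nuclei from the same 6 libraries: KO C10 against WT C11 (6579 nuclei, the other Int pair split by genotype), C5 (2326 Int nuclei of both genotypes) and the Late class (17752 nuclei). KO against WT gave 4708 calls of 19519 (24.1%) in C10 and C11, 173 of 19438 (0.89%) in C5, where a WT library had as few as 143 nuclei, and 8161 of 15886 (51.4%) in Late. The sets share their libraries, so only the tests of the difference within libraries compare them. The members were deeper than other Int nuclei (above), and the part of depth in these comparisons was not tested. The stage index was 0.53 in WT C11 and 0.631 in KO C10 (exact p = 0.2), a gap opposite in sign to that between C9 and C8. In Late the index was lower in KO by 0.263 (exact permutation p = 0.1, the smallest possible), with all KO values below all WT values. The part of stage in the comparisons with these sets was not tested.

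C5 holds both genotypes, and its nuclei are none of the members. Of the 12 leading gains 7 passed there, and of the 12 leading losses 7, beside 0.89% of all genes in either direction. C5 comes from the same 6 libraries in which the loci were chosen, and the difference from C5 was not tested. The gains that did not pass in C5 were Arhgdib (1.71), Pirt (0.66), Cyb561 (1.27), Ndrg2 (1.30) and Tmem51 (1.64). Apol11a rose there by 2.75 (adjusted p = 0.00562), Gmpr by 2.96 (adjusted p = 9.18e-05), Cdkn1a by 1.74 (adjusted p = 3.97e-04) and Erfe by 1.50 (adjusted p = 5.34e-04). Gata2 rose by 1.04 (adjusted p = 0.0199) and Sox4 by 1.54 (adjusted p = 0.00575). Among the losses Gpc4 (-1.72), Pdgfd (-1.73), Jun (-0.96) and Myc (-1.09) passed in C5 too. Fli1 did not (0.29, adjusted p = 0.760), nor did Socs3 (1.08, adjusted p = 0.0812), Podxl (0.61), Cish (0.46) or Socs2 (0.08). Gmpr, Cdkn1a and Erfe did not pass in the tests of the difference from C10 and C11 or from Late: for Cdkn1a the differences were -0.03 (adjusted p = 0.835) and 0.0013 (adjusted p = 0.995).

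Like C8 and C9, C10 and C11 are each almost all of 1 genotype. The test of the difference sets C8 less C10 in KO against C9 less C11 in WT. Cluster and genotype cannot be told apart in it either, and "KO effect" is meant in that sense. Of 18866 genes, 3358 (17.8%) had a KO effect in C8 and C9 that differed from that in C10 and C11, 2324 of them more positive and 1034 more negative. That count fell to 1218 under quantile normalization and to between 897 and 2358 when 1 library was left out. Jun was one: -0.94 here, -0.40 in C10 and C11, a difference of -0.54 (adjusted p = 0.0189). For Pdgfd the values were -1.52 and -0.78 (difference -0.74, adjusted p = 0.0156), and for Myc -0.61 and -0.24 (difference -0.37, adjusted p = 0.0354). Jun and Pdgfd were named for the size of their falls in C8 and C9, which tilts these differences toward more negative values. Fli1 rose more here than there, by 1.08 against 0.36 (difference 0.73, adjusted p = 0.0181).

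Gata2 rose less, by 0.94 against 1.28 (difference -0.33, adjusted p = 0.0479), and so did Fos, by 0.45 against 0.84, and Klf6, by 0.32 against 0.95. Lfng, whose enzyme adds sugars to Notch receptors, scored 78.7, 80.3 and 69.6 in WT C9 and 124, 114 and 108 in KO C8. It rose by 0.59 here and by 1.50 in C10 and C11 (difference -0.91, adjusted p = 0.00619). The class Ib histocompatibility gene H2-T10 showed 0.54 and 1.42, and Cbln3 0.44 and 1.31. In the other direction 2210417A02Rik was 1.11 here and -0.52 there, Tunar 0.82 (lost without WT library 3 or KO library 3) and -0.55, and Mir5112 0.87 and -0.48 (the last not past the threshold there, adjusted p = 0.0551). The WT C9 means of Tunar and Mir5112 lay below the filter at 5.

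Counts of lower calls in lists of the erythroid programme were set beside those in C10 and C11 and in Late. The erythroid transcription factors had 5 of 13 lower here, 11 of 13 in C10 and C11 and 10 of 13 in Late, beside 7.62%, 10.3% and 18.5% of all genes. Membrane and surface genes had 4 of 19, 15 of 19 and 15 of 19, and late maturation genes 0 of 20, 9 of 20 and 11 of 20. In the tests of the difference from C10 and C11, 2, 3 and 3 genes of these lists were more positive here, among them Tal1 (difference 0.19, adjusted p = 0.0425), and none more negative. Those counts are near the background of that test, in which 12.3% of all genes were more positive and 5.48% more negative. In the tests of the difference from Late, 1 of 13, 2 of 19 and 1 of 20 were more positive and none more negative, beside 1.89% and 4.37% of all genes, in a test whose calls rested on single libraries (next).

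Against Late, 994 of 15882 genes (6.26%) differed, but that count rested on single libraries. It was 0 without KO library 2, 9 without KO library 1 and 3 without KO library 3, and 182, 211 and 1585 without WT library 1, 2 or 3. With all libraries, Chac1 rose less here than in Late, by 0.83 against 2.27 (difference -1.43, adjusted p = 0.0139). Trib2, a pseudokinase gene, fell by 0.60 here, a call lost without KO library 3, and rose by 0.72 in Late (difference -1.32, adjusted p = 0.0138), and Gm2762 rose by 0.81 and 2.11. Jun fell by 0.94 here and was -0.15 in Late, which did not pass (difference -0.79, adjusted p = 0.0215). The choice of Jun by its fall here tilts this difference as well. Slc16a8 (0.96 here, -0.04 in Late), Epop (0.75 and -0.17) and C030013C21Rik (0.09 and -0.71) differed upward, the first with a WT C9 mean below the filter at 5.

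**Figure D5:**
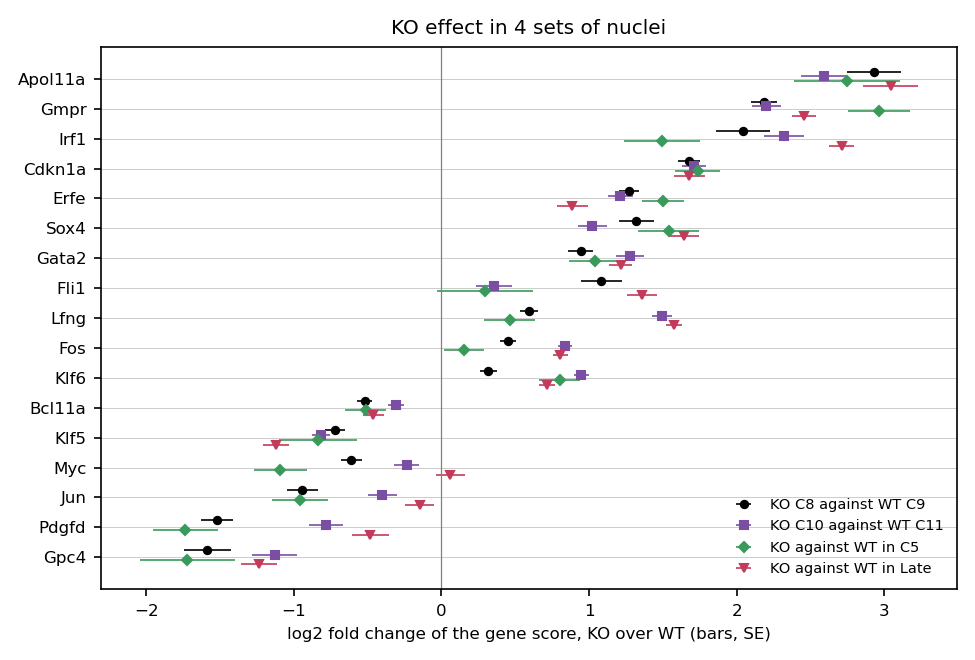
Log2 fold change of the gene score, KO over WT (x axis, bars SE), for 17 genes (y axis) in 4 sets of nuclei from the same 6 libraries. Cdkn1a lies between 1.68 and 1.74 in all sets, while Jun runs from -0.96 in C5 to -0.15 in Late and Lfng from 0.46 in C5 to 1.57 in Late.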

How the data were processed

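The deposited table holds 24333 gene scores for each of 34073 nuclei of 6 ATAC libraries, a signal that the authors scaled to a sum of about 10000 per nucleus (9999.855 to 10000.12 in the file). The submitters' processing notes name Cell Ranger and the mm10 build. The weighting behind the score and the data used for clustering are not given in the sources used here. A second deposited table gives each nucleus its cluster, stage label, genotype, count of ATAC fragments as the authors deposited it, and quality measures, including ratios (nucleosome ratio, blacklist share), fractions (ends in peaks) and scores (start site enrichment, doublet score), as deposited by the authors. Scores were averaged per library, rescaled to a sum of 1000000, and genes with a mean of at least 5 were tested as log2(score + 1) with limma 3.58.1 (lmFit, eBayes with trend, two-sided, R 4.3.3), with Benjamini-Hochberg adjustment over all genes tested calling those under 0.05. The pseudocount makes fold changes of low genes too small. Scores are no counts, so no count model was used. The script was tested on simulated data.

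Single values were compared by two-sided exact permutation tests (Python 3.11.15, scipy 1.17.1). The difference from C10 and C11, and from Late, was tested on within-library differences. Named were the 12 loci with the largest rise and the 12 with the largest fall among calls made both in C8 against C9 and in the pool of the 2 clusters, with groups apart in both and starts within 100 kb joined, 10 regulators, the list members described, and the 3 genes with the largest difference in each direction from C10 and C11 and from Late. Sequences are RefSeq's (GRCm38.p6). Members and lists were chosen with earlier results of these data known. Alternatives covered the pseudocount (0.1 and 5), the filter (20 and none), scaling, the variance trend, fragment weighting and matching, doublet scores, single libraries and the replicate numbers. No doublet was removed here, and the median doublet score was 0 in every library.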

Additional observations from a re-analysis of the deposited data

Results flagged for a closer look

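The results below were picked out because the KO effect in C8 and C9 differed, by a test within libraries, from the effect in another set of nuclei. Each value is the log2 fold change of KO over WT here less that in the other set. Pdgfd, Jun, Gnat2 and Nat3 were named for their falls here, which tilts their differences toward more negative values.

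Against C10 and C11 the KO effect was more negative here at Pdgfd (-0.74), Jun (-0.54), Gnat2 (-0.61), Nat3 (-0.66), Trib2 (-0.65), Myc (-0.37) and Mcm4 (-0.23), all of them lower in KO here. It was also more negative at genes that were higher in KO here but by less than in C10 and C11, namely Lfng (-0.91), H2-T10 (-0.88), Cbln3 (-0.87), Klf6 (-0.63), Sh2b3 (-0.48), Gp5 (-0.59), Fos (-0.39) and Gata2 (-0.33). It was more positive at 2210417A02Rik (1.63), Tunar (1.37), Mir5112 (1.35), Fli1 (0.73), Cebpa (0.59) and Tal1 (0.19). C10 of KO stood 0.101 above C11 of WT on the stage index while C8 less C9 was -0.0422, and the part of stage in these differences was not tested.

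Against Late the KO effect was more negative here at Chac1 (-1.43), Trib2 (-1.32), Gm2762 (-1.29), Pdgfd (-1.04), Lfng (-0.98), Gp5 (-0.87), Jun (-0.79), Rtp4 (-0.78), Myc (-0.67), H2-T10 (-0.57), Socs1 (-0.54), Arhgdib (-0.49), Cbln3 (-0.49) and Klf6 (-0.40). It was more positive at Slc16a8 (1), Epop (0.92), C030013C21Rik (0.80) and Hbq1a (0.27). The whole set of calls against Late was 0 to 9 when any 1 KO library was left out. On the stage index Late nuclei of KO less those of WT were at -0.263, and the part of stage in these differences was not tested either.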

How the results depend on the processing

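Of the genes named in the comparison of KO C8 with WT C9, 81 were refitted under each alternative, giving 1513 gene and setting pairs: 1367 kept direction and side of the threshold, 133 fell short of it, 2 passed it newly and 11 turned sign. The sign turned at genes near 0 that passed in no setting. These were Klf1 (0.0516 under quantile normalization, 0.0563 under cyclic loess, -0.0376 to 0.0224 with 1 library left out, 0.0031 weighted by fragments, 0.0133 matched on fragments and 0.0094 in the lower range of doublet scores), Runx1 (-0.0794 under median centring and -0.0096 to 0.0808 with 1 library left out) and Kit (-0.209 to 0.11 with 1 library left out and 0.047 matched on fragments). The count of calls moved from 4630 to 2660 with a filter at 20, 2758 without the variance trend, 2526 in matched nuclei and 2540 to 5655 with 1 library left out. Quantile normalization gave 3215, cyclic loess 3108 and median centring 5235. For C8 and C9 pooled, leaving out 1 library gave 2396 to 5541.

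The share of calls higher in KO, 67.9%, became 48.3% with a filter at 20, 69.6% without a filter, 43.6% under median centring, 51.1% under quantile normalization, 54% under cyclic loess, 82% without the variance trend, 63.5% weighted by fragments, 62.1% in matched nuclei and 62.1% to 74.7% with 1 library left out. The stage difference of -0.0422 became 0.0836 with a cutoff of 1, -0.131 with genes of WT libraries, and -0.0754 to -0.0152 with 1 library left out. The count of differences from C10 and C11, 3358, became 1218 under quantile normalization and 897 to 2358 with 1 library left out, and that from Late, 994, became 0 to 1585 (without KO library 2 it was 0, with 3025 genes at an unadjusted p under 0.05). The cause of these shifts was not tested.

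With the replicate number as a block the main comparison gave 5182 calls and the pooled one 5447. Deviations of same-numbered libraries correlated at 0.103, -0.0333 and 0.0312, and those of other pairs at -0.117 to 0.0686. With 3 libraries per group these values do not settle whether the numbers pair the libraries. The comparison of C8 with C9 within a genotype was not run, since no library had 20 nuclei in both. Fragments per nucleus differed between genotypes, and their part in the changes at low genes was not tested beyond the matched nuclei.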

Other observations

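The guanylate binding proteins are interferon-induced GTPases that attack the compartments of microbes within cells. Of 11 such genes, 7 were tested, and 5 of these were higher in KO C8 and none lower (median 0.41), beside 16.2% and 7.62% of all genes. The family was listed after the values were seen, and its genes lie in rows of neighbours on chromosomes 3 and 5, so that their scores can share fragments. Gbp8 scored 1.81, 2.83 and 2.39 in WT and 9.92, 6.63 and 8.29 in KO, with no overlap (1.47, SE 0.19, limma adjusted p = 2.94e-05). It passed the filter at a mean of 5 only through its KO values, so that a gene like it had to differ to be tested, and the count above includes it. Gbp2b was at 22.3, 25.4 and 18.6 in WT and 29.0, 31.7 and 27.9 in KO, also apart (0.41, adjusted p = 0.0139), and this call was lost without KO library 2 (adjusted p = 0.0779). Under quantile normalization 1 of the 7 was higher and under cyclic loess 2, beside 1643 and 1678 of all 19476 genes.

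Podxl, the sialomucin podocalyxin of progenitors and platelets, scored 22.7, 22.8 and 19.5 in WT and 36.6, 33.2 and 36.5 in KO (0.69, adjusted p = 6.65e-05). Gp5, a platelet glycoprotein gene, scored 18.5, 22.7 and 14.6 in WT and 33.3, 32.9 and 29.2 in KO (0.76, adjusted p = 4.21e-04). Slamf1, a surface marker of stem cells, scored 4.87, 6.47 and 4.93 in WT and 10.9, 8.36 and 11.2 in KO (0.80, adjusted p = 0.00366), close to the filter at 5. These 3 genes were chosen after their values were seen.

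The X chromosome carries Stag2, Gata1 and Gpc4. Of its 487 tested genes 22 were higher and 39 lower, beside 16.2% and 7.62% of all genes, so the lower count is near the background and the higher count is below it. The median was -0.04 beside 0.05 over all genes.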
